A study of Mus musculus with 30 samples.

Results

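The guidance genes described here are the semaphorins, plexins, neuropilins, Eph receptors, ephrins, netrins, Unc5 receptors, Robo receptors and Slit ligands of the mouse, on arrays of RNA from brain microvascular fragments. Members were chosen by symbol among probe sets (groups of array probes for 1 transcript) that the array annotation pairs with exactly 1 gene, and the brightest such set by its average over the 30 arrays stood for a gene. This gave 67 members of 18194 genes in all: 20 semaphorins, 9 plexins, 2 neuropilins, 9 EphA and 4 EphB receptors, 5 ephrin-A and 3 ephrin-B ligands, 4 netrins, 4 Unc5 receptors, 4 Robo receptors and 3 Slit ligands. On at least 3 of the 30 arrays 41 of them had a log2 signal above 4; they are called measured below, and 11243 genes in all met this minimum.

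These proteins were first known for steering growing axons and also act on blood vessels. Secreted semaphorins bind neuropilins that signal through plexins, and membrane semaphorins bind plexins directly. Ephrins stay on the cell surface and meet Eph receptors on the neighbouring cell, ephrin-B2 and EphB4 being markers of arterial and venous endothelium. Netrins bind Unc5 receptors among others, Slit proteins bind Robo receptors, and Robo4 is the family member of endothelial cells.

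The first model removes the retention motif that holds platelet-derived growth factor B (PDGF-B), the signal that recruits pericytes, at the vessel wall. Its mutants are pdgfbret/ret (4 arrays, 7 to 10 months) and its controls are the heterozygotes pdgfbret/+ (4 arrays, 8 to 10 months), both on C57/B6/J, and their labels name no brain region. The second model, here R26P, is on a mixed C57/SV129 background. Its mutants are Tie2Cre, R26P+/0, pdgfb-/-: they lack mouse Pdgfb, and Tie2Cre, which is active in endothelium, switches on 1 copy of a human PDGF-B transgene at Rosa 26. Its controls are R26P+/0, pdgfb+/+ and carry the same transgene silent. Cerebrum and cerebellum were measured with 4 arrays a group in each genotype, and the age is given as 1 year in the titles but as 2 months elsewhere in the labels. Wild-type C57/B6/J Notch3+/+ mice of 2 months gave 3 arrays of cerebrum and 3 of cerebellum. Arrays of a group are labelled biological replicates, and their number limits the precision.

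The 9 measured pericyte markers fell in all 3 mutant comparisons, with median log2 changes of -3.87 (ret), -3.26 (R26P cerebrum) and -2.98 (R26P cerebellum). The mean of 10 endothelial markers lay between 12.97 and 13.90 on every array. Single endothelial markers did change: 1 passed lower in ret, 2 higher and 1 lower in R26P cerebrum, and 1 higher in R26P cerebellum. Mouse Pdgfb was at 4.73 to 8.01 in R26P mutants, against 12.05 or more in their controls. The probe set stayed at 11.71 to 12.51 in ret mutants, which still transcribe the gene. Markers of other cells moved too: of 7 measured astrocyte markers 5, 6 and 5 fell (in the same order), of 7 smooth muscle markers 0, 7 and 2, and of 5 perivascular fibroblast markers 1, 4 and 4. Of 4 blood leukocyte markers 3, 1 and 0 rose. In such mixed samples, fewer cells of a type and less RNA per cell cannot be told apart. Growth hormone (Gh), a pituitary transcript, was above 8 on ret mutants 1, 2 and 4, on replicates 2 and 3 of both R26P groups of cerebrum, on R26P mutant cerebellum 3 and on wild-type cerebrum 3. Xist and Eif2s3y went against the labelled sex of the 4 ret controls.

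Of the 41 measured members, 31 were above 4 on all 30 arrays. The 4 members Sema4g, Epha7, Ephb1 and Slit3 reached the minimum of 3 arrays only with the wild-type arrays. The other 26 members were above 4 on none of the arrays; their highest reading was 3.78, for Efnb3. They include the axonal repellents Sema3a and Slit1, the receptors Robo1, Robo2 and Robo3, the netrin receptors Unc5a, Unc5c and Unc5d, and the Eph receptors Epha1, Epha5, Epha6, Epha8, Epha10, Ephb3 and Ephb6. Each family except the neuropilins therefore held both measured and unmeasured genes, and Unc5b and Robo4 were the single measured members of theirs. By group mean, the brightest semaphorins were Sema7a (13.02 to 14.23 over the 8 groups) and Sema3c (13.29 to 14.10), and Nrp1 lay between 12.86 and 13.35. Signals of different probe sets are not levels of the genes relative to each other.

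In ret mutants 10 of the 41 measured members passed the test against controls (limma, Benjamini-Hochberg adjusted p below 0.05 over all tested genes), 3 higher and 7 lower. In R26P cerebrum 12 passed, 5 higher and 7 lower, and for R26P cerebellum 14 passed, 7 higher and 7 lower. Over all tested genes 16.6% passed in ret (8.00% higher, 8.63% lower), 18.7% in R26P cerebrum (8.35% higher, 10.3% lower) and 15.6% in the R26P cerebellum (6.94% higher, 8.70% lower). The shares of the members were 24.4%, 29.3% and 34.1%. The median change of the members was -0.01, -0.01 and 0.07. The guidance genes thus had no common direction, with members called higher and members called lower in each comparison. Sema3e is above 4 on 7 arrays, all of them mutants, so that it entered the test through the groups where it was high.

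**Figure D1:**
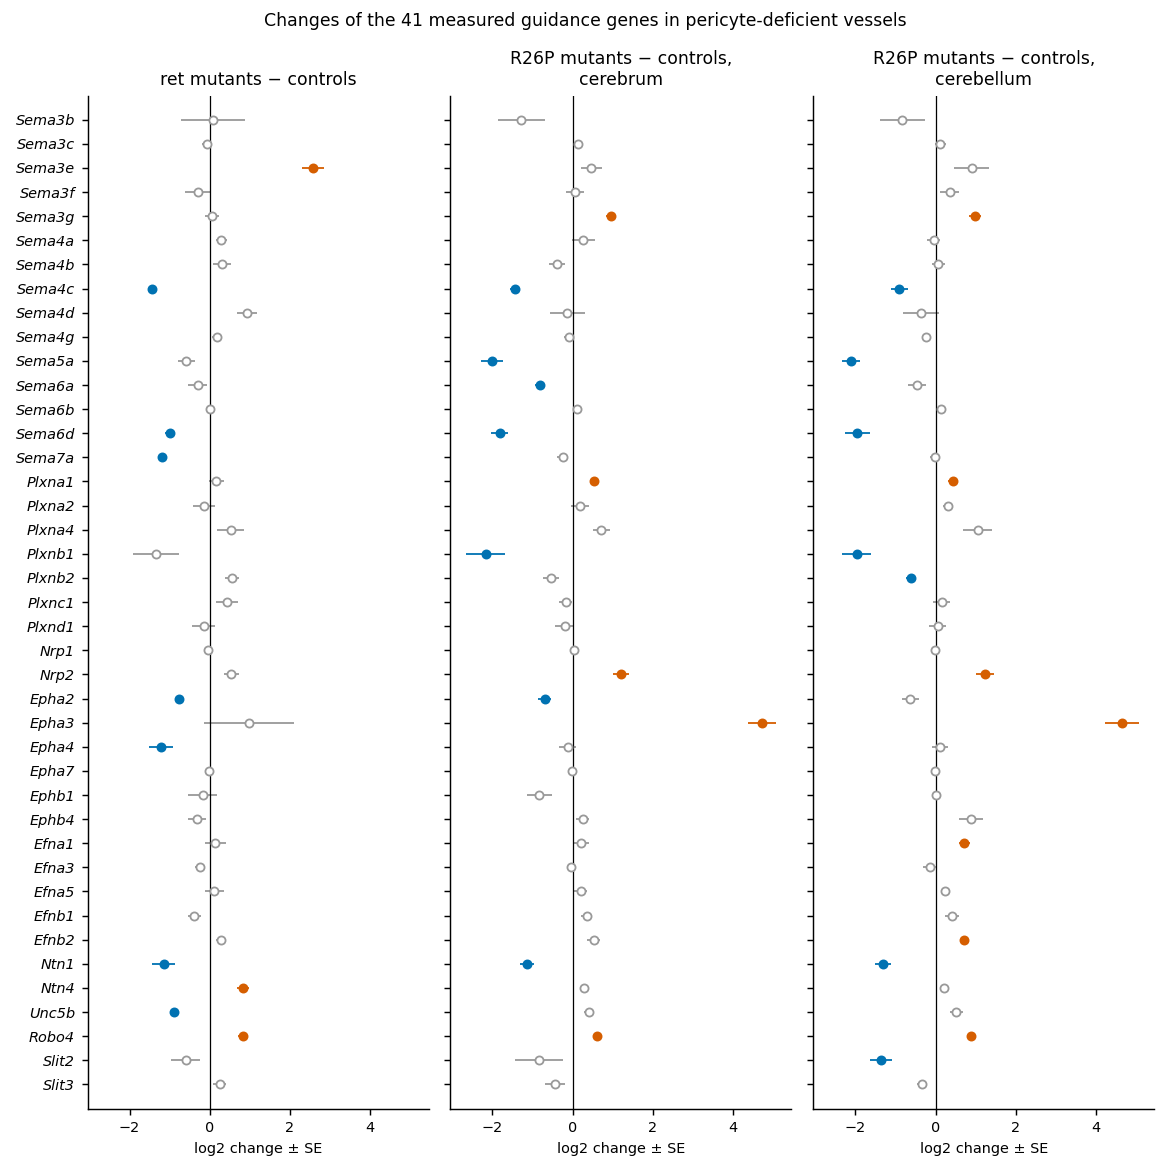
Log2 change (mutants minus controls, horizontal axis, bars 1 SE) of the 41 measured guidance genes in the 3 mutant comparisons, 4 arrays a group. Filled orange points passed higher, filled blue points passed lower and open points did not pass. Epha3 stands farthest to the right in both R26P panels, at 4.71 and 4.65, and Sema3e in the ret panel, at 2.57.

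Control and mutant values without overlap are named below as such; over all tested genes they were without overlap for 23.5% in ret, 25.9% in R26P cerebrum and 22.8% for the cerebellum. In all 3 comparisons 1 measured member rose and 3 fell. Over all tested genes 2.02% were higher in each and 2.84% lower in each. The one that rose was Robo4, the endothelial Robo receptor. Its signal was 11.43, 11.67, 11.62 and 11.87 in ret controls and 12.39, 12.54, 12.70 and 12.31 in ret mutants. In R26P cerebrum it was 11.20, 11.48, 11.18 and 11.15 in controls and 11.83, 12.04, 11.82 and 11.74 in mutants. The mutants lay above the controls without overlap in both, as they did in cerebellum (10.86 to 11.16 against 11.73 to 12). The log2 changes were 0.83 ± 0.12 (SE, adjusted p = 0.004), 0.60 ± 0.10 (0.0074) and 0.88 ± 0.09 (0.00093).

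The promoters of Epha3 and Sema3e are shown because these genes, described below, had the largest rise in R26P and in ret mutants. Each line gives the 250 bases before the gene's annotated start, from RefSeq on GRCm38.p6, 5′ to 3′ on the gene's strand, with GGAA and its reverse complement TTCC, the core bound by ETS factors, in capitals. The windows are chr16:63864176-63864425 (Epha3, minus strand) and chr5:14025026-14025275 (Sema3e, plus strand); 58 of the 67 members have such an entry.
Epha3: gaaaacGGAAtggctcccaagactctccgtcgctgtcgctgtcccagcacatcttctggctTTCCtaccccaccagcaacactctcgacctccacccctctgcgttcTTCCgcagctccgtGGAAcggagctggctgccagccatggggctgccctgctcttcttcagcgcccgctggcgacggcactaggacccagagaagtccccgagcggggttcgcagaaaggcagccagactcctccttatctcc
Sema3e: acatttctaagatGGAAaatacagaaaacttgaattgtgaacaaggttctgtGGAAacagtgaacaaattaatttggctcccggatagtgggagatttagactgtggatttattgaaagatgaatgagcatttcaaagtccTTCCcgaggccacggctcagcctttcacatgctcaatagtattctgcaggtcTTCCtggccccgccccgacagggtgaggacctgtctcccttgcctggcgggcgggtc
GGAA occurred 4 times before Epha3 and 4 times before Sema3e on the 2 strands together, and at least once in 93.4% of 32851 promoter windows of this length, where the median was 3. GGGCGG, the core of Sp1 sites, was found 2 times before Sema3e and not before Epha3; 32.7% of windows hold it. TATAAA, a core promoter motif, was in neither window and in 12.4% of all. A match is a run of letters and not a measured site.

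Of the 3 members that fell in every comparison, Sema4c is a membrane semaphorin that binds plexin B2. It was 8.81, 8.65, 8.45 and 8.86 in ret controls and 7.08, 7.25, 7.33 and 7.36 in ret mutants. In R26P cerebrum it was 8.54, 8.82, 8.98 and 8.57 in controls and 7.30, 7.39, 7.39 and 7.09 in mutants. The groups were apart by more than 1 log2 unit in both, and the log2 change was -1.44 in each (SE 0.11, adjusted p = 0.00036, and SE 0.12, 0.00034). In cerebellum the mutants (7.47 to 7.82) were again below all controls (8.03 to 8.92), with a change of -0.90 ± 0.21 (adjusted p = 0.026). That call was lost without R26P control cerebellum 3 (0.057) or R26P mutant cerebellum 2, 3 or 4 (0.066, 0.071 and 0.054).

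Sema6d, a membrane semaphorin that binds plexin A1, was 11.77, 11.54, 11.39 and 11.46 in ret controls and 10.43, 10.43, 10.53 and 10.81 in ret mutants. In R26P cerebrum controls had 11.76, 11.81, 11.42 and 11.24 and mutants 9.84, 10.14, 9.81 and 9.17. No mutant reached a control in either model, nor in cerebellum (9.34 to 10.73 against 11.59 to 12.50). The log2 changes were -0.99 ± 0.12 (adjusted p = 0.0019), -1.82 ± 0.22 (0.0015) and -1.95 ± 0.32 (0.0066).

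Ntn1 encodes netrin-1, a secreted ligand of Unc5 receptors. In R26P cerebrum it was 9.31, 9.28, 9.31 and 8.95 in controls and 8.42, 7.81, 7.81 and 8.25 in mutants. In cerebellum it was 9.88, 9.42, 9.58 and 9.11 in controls and 8.50, 8.30, 8.07 and 7.89 in mutants. Both regions were without overlap, with changes of -1.14 ± 0.17 (adjusted p = 0.0034) and -1.31 ± 0.19 (0.0039). In ret it was 8.51, 8.16, 8.70 and 7.37 in controls and 7.38, 7.10, 6.70 and 6.97 in mutants, so that control 4 lay within the range of the mutants. The ret change of -1.15 ± 0.29 (adjusted p = 0.035) was lost without ret control 1, 2 or 3 (0.091, 0.084 and 0.082) or ret mutant 2, 3 or 4 (0.077, 0.089 and 0.069). It was also lost with the mean of the pituitary markers as a covariate (-1.44, 0.13).

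**Figure D2:**
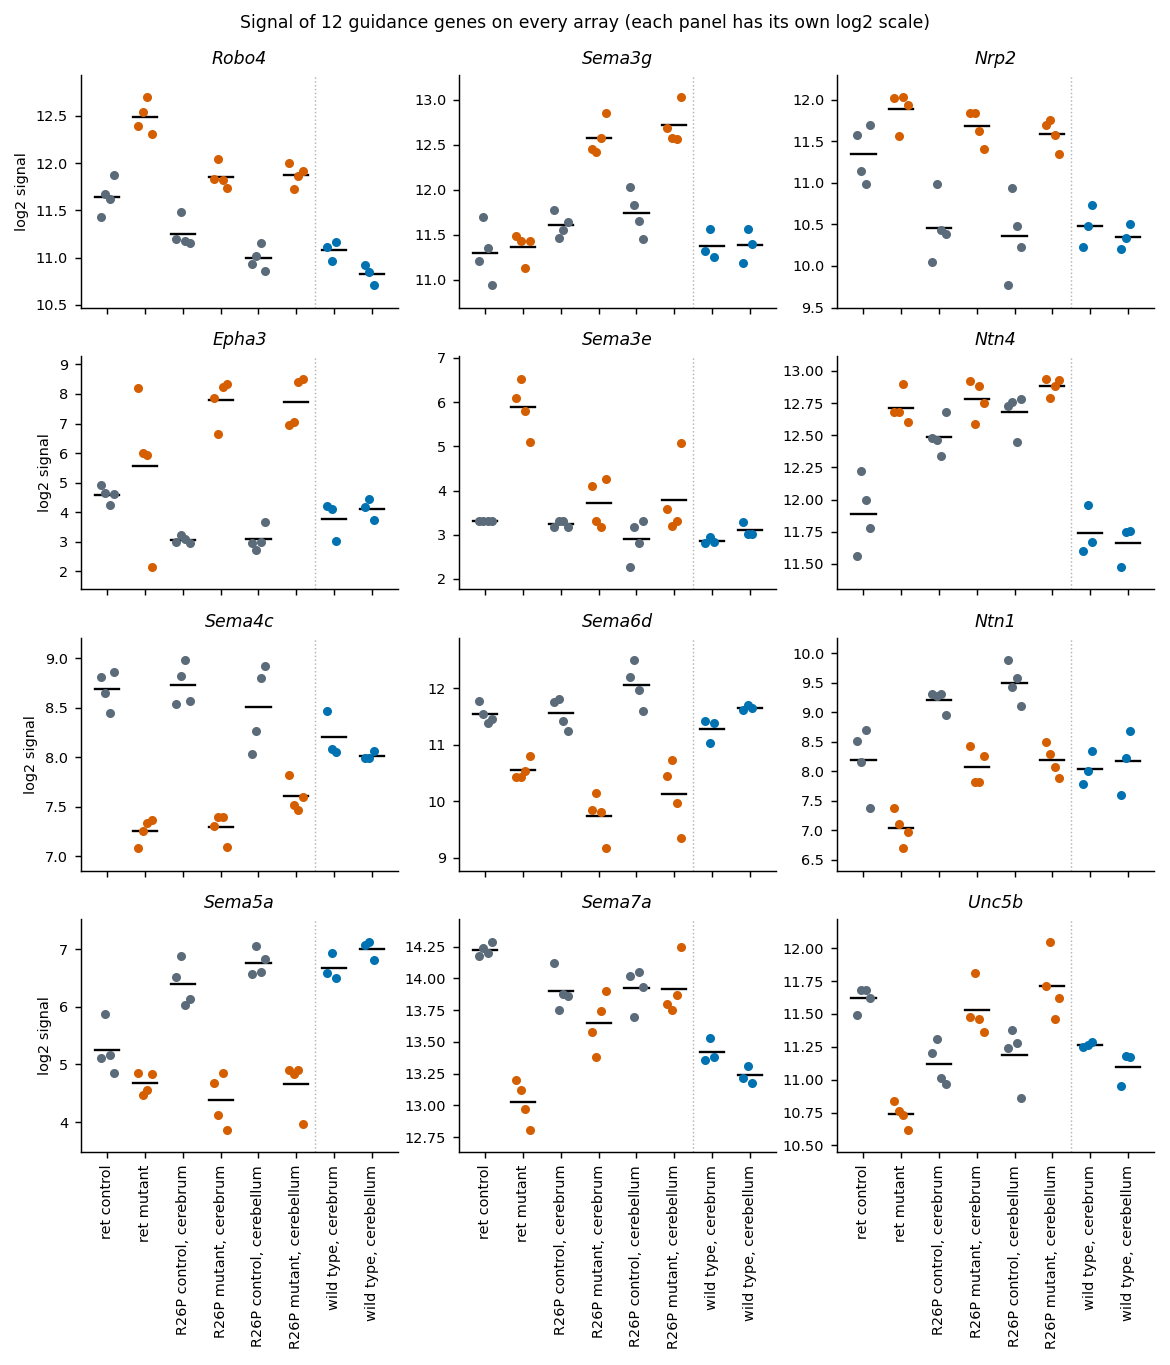
Log2 signal (vertical axis, a scale of its own in each panel) of 12 guidance genes on every array. Grey points are controls, orange points mutants and blue points wild type, and the bar is the group mean. The dotted line sets apart the wild-type arrays, which appear to have been normalized separately. Robo4 is higher and Sema4c and Sema6d lower in all mutants than in their controls; Sema7a and Unc5b passed lower in ret mutants and did not pass in R26P mutants.

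In the same direction 10 members passed in both regions of the R26P model, 5 higher and 5 lower, where 4.38% and 6.79% of all tested genes were higher or lower in both. The regions may come from the same mice, since arrays of one number resembled each other, so they are not separate evidence. The 5 higher ones were Epha3, Nrp2, Sema3g, Plxna1 and Robo4.

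Epha3, an EphA receptor, had the largest change of any member. It was 3.00, 3.22, 3.08 and 2.97 in R26P control cerebrum and 7.87, 6.66, 8.24 and 8.35 in mutant cerebrum. In cerebellum it was 2.95, 2.71, 3.00 and 3.68 in controls and 6.95, 7.06, 8.42 and 8.52 in mutants. All 8 controls were below 4, near the lower end of the scale, and all 8 mutants were above 6. The changes were 4.71 ± 0.35 (adjusted p = 0.00019) and 4.65 ± 0.42 (0.00049), and with controls this dim their exact size rests on the background correction. A second Epha3 probe set went from 2.29 to 5.26 in cerebrum and from 2.22 to 4.98 in cerebellum. The rest of its 4 probe sets showed no rise, with group means of 2.16 to 2.20 in both regions, near the lowest value of the arrays. In ret the same gene was 4.91, 4.64, 4.23 and 4.60 in controls and 8.19, 6, 5.93 and 2.16 in mutants. Mutants 1 to 3 were above all controls and mutant 4 was at the lowest value of the array, and the change of 0.97 ± 1.12 did not pass (adjusted p = 0.59). Without ret mutant 4 it was 2.11 and passed (0.047). The ret and R26P cerebrum effects differed by -3.74 ± 1.22 (adjusted p = 0.1), short of the threshold; without ret mutant 1 the difference passed (-4.61, 0.024).

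Nrp2 is a co-receptor for secreted semaphorins and for VEGF-C. It was 10.05, 10.98, 10.43 and 10.38 in control cerebrum and 11.84, 11.84, 11.62 and 11.41 in mutant cerebrum. In cerebellum it was 9.77, 10.94, 10.48 and 10.23 in controls and 11.69, 11.75, 11.57 and 11.35 in mutants. No control reached a mutant, and the changes were 1.21 ± 0.20 (adjusted p = 0.0057) and 1.23 ± 0.23 (0.013). In ret mutants it was 0.54 ± 0.19 higher, which did not pass (0.088), but the mean of its probe sets did (0.70, adjusted p = 0.03). Nrp1, its paralogue and a VEGF co-receptor, changed by -0.04, 0.04 and -0.01 with SE of 0.07 to 0.08 (adjusted p = 0.76, 0.79 and 0.93).

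Sema3g is a secreted semaphorin of arterial endothelium and a ligand of neuropilin-2. It was 11.78, 11.46, 11.55 and 11.64 in control cerebrum and 12.45, 12.42, 12.57 and 12.85 in mutant cerebrum. In cerebellum controls had 12.03, 11.83, 11.65 and 11.45 and mutants 12.69, 12.58, 12.56 and 13.03. The gain was close to 1 log2 unit in both, 0.96 ± 0.12 (adjusted p = 0.0016) and 0.98 ± 0.15 (0.0057). In ret it was 0.06 ± 0.17 (0.83), with control and mutant ranges that overlap (10.94 to 11.70 and 11.13 to 11.48). Plxna1, a plexin that pairs with neuropilins, rose by 0.53 ± 0.07 in cerebrum (0.0023) and 0.44 ± 0.12 in cerebellum (0.04); the second call was kept only without R26P control cerebellum 3 and reached 0.098 without R26P mutant cerebellum 2.

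In cerebellum alone of the 3 tests, 2 ephrins passed higher. Efnb2, the arterial ephrin, was 10.22, 10.20, 10.02 and 9.80 in controls and 10.75, 10.88, 10.79 and 10.71 in mutants (0.72 ± 0.11, adjusted p = 0.0041). Efna1 was 8.82, 9.14, 8.92 and 9.15 in controls and 9.72, 10.06, 9.48 and 9.63 in mutants (0.72 ± 0.14, 0.014). Both sets of mutants were above their controls. In cerebrum Efnb2 changed by 0.52 ± 0.17 (0.065) and Efna1 by 0.22 ± 0.19 (0.45), and no member passed the test of a difference of the R26P effect between regions (limma; 2 had an unadjusted p below 0.05, and 0.116% of all genes passed), so a regional difference of either is not shown. Ephb4, a receptor of ephrin-B2, was at 0.25 ± 0.17 in cerebrum (0.34) and 0.89 ± 0.30 in cerebellum (0.082; 1.16 and 0.017 without R26P control cerebellum 3).

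Lower in both regions of the R26P model were Sema5a and Plxnb1, besides Sema4c, Sema6d and Ntn1. Sema5a, a membrane semaphorin with thrombospondin repeats, was 6.52, 6.88, 6.03 and 6.14 in control cerebrum and 4.68, 4.13, 4.86 and 3.87 in mutant cerebrum. In cerebellum it was 6.57, 7.05, 6.6 and 6.83 in controls and 4.90, 4.83, 4.91 and 3.97 in mutants. Both regions showed about 2 log2 units of loss, -2.01 ± 0.27 (adjusted p = 0.0024) and -2.11 ± 0.23 (0.0011), with no overlap. In ret the change was -0.58 ± 0.22 (0.11).

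Plxnb1, the plexin that binds Sema4d, was 8.78, 8.97, 8.92 and 8.83 in control cerebrum and 7.34, 6.53, 7.75 and 5.20 in mutant cerebrum. In cerebellum it was 9.54, 9.23, 9.13 and 9.20 in controls and 7.90, 7.59, 7.62 and 6.09 in mutants. The controls were tight and the mutants spread widely, with mutant 4 lowest in both regions. The changes were -2.17 ± 0.49 (adjusted p = 0.021) and -1.97 ± 0.37 (0.012). A second Plxnb1 probe set fell by less between group means, from 7.85 to 7.11 in cerebrum and from 7.93 to 7.28 in cerebellum. The call in cerebrum was lost without R26P control 1, 2, 3 or 4 (0.053, 0.055, 0.053 and 0.051) or mutant 2 (0.057). In ret mutants the gene changed by -1.34 ± 0.58 (0.15), and by -1.85 without ret mutant 4 (0.028).

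Other falls passed in 1 R26P region. Sema6a, a membrane semaphorin, fell in cerebrum (-0.81 ± 0.12, adjusted p = 0.004; -0.47 ± 0.23 in cerebellum, 0.21). Plxnb2, the receptor of Sema4c, fell in cerebellum (-0.61 ± 0.12, 0.013) and was at -0.55 ± 0.20 in cerebrum (0.095; -0.73 and 0.021 without R26P mutant cerebrum 4). Slit2, a secreted Robo ligand, was 9.12, 9.11, 8.30 and 8.60 in control cerebellum and 7.58, 7.66, 7.70 and 6.76 in mutants, a fall of 1.36 on the log2 scale with SE 0.27 (adjusted p = 0.014) and no overlap. In cerebrum it was at -0.84 ± 0.59 (0.35). Epha2, a receptor of ephrin-A1, fell in ret (4.71 to 4.90 in controls, 3.96 to 4.21 in mutants; -0.77 ± 0.08, 0.0011) and in R26P cerebrum (-0.70 ± 0.17, 0.026). The second call was lost without R26P control cerebrum 2 (0.069) or mutant 2, 3 or 4 (0.055, 0.053 and 0.06). In cerebellum it was at -0.63 ± 0.21 (0.077; -0.82 and 0.015 without R26P control cerebellum 4).

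On R26P cerebrum, 2 controls and 2 mutants carry the Gh signal named above. Without them, which leaves 2 arrays against 2, 3 members passed: Epha3 (5.12, adjusted p = 0.026), Sema4c (-1.37, 0.047) and Ephb1 (-1.44, 0.036), an EphB receptor that is below 4 on all of these arrays. The changes of the other 10 called members kept their sign, from -2.53 for Plxnb1 to 1.41 for Nrp2, with adjusted p of 0.093 to 0.28. In cerebellum 12 members passed without mutant 3, the array with Gh. The shares of all tested genes in these 2 runs are not given here, so the counts are no result about the members alone.

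The 5 members Sema3e, Sema7a, Unc5b, Ntn4 and Epha4 were called in ret mutants and in neither R26P region. Sema3e, a secreted semaphorin that binds plexin D1 without a neuropilin, was at 3.31 on all 4 ret controls and at 6.09, 6.53, 5.80 and 5.10 in ret mutants. The change was 2.57 ± 0.27 (adjusted p = 0.0012), measured from controls at background. Of its 4 probe sets only the one used had a group mean above 4 in ret. Another went from 2.18 to 2.99 between group means, and the rest stayed at 2.16 to 2.17. Its R26P values overlapped, with changes of 0.47 ± 0.25 in cerebrum (0.22) and 0.90 ± 0.44 in cerebellum (0.2), and mutant 4 highest in both regions (4.25 and 5.08). Its receptor Plxnd1 changed by -0.15, -0.20 and 0.05 in the 3 comparisons (SE 0.21 to 0.28; adjusted p = 0.75, 0.58 and 0.89).

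Sema7a, a semaphorin anchored in the membrane by a lipid, was 14.18, 14.24, 14.20 and 14.29 in ret controls and 13.20, 13.12, 12.97 and 12.81 in ret mutants. Unc5b, the netrin receptor of endothelial cells, was 11.49, 11.68, 11.68 and 11.62 in ret controls and 10.84, 10.76, 10.73 and 10.62 in mutants. Both genes had narrow groups far apart, with changes of -1.20 ± 0.09 (adjusted p = 0.00036) and -0.88 ± 0.08 (0.00047). In the R26P model Sema7a was at -0.25 ± 0.13 and -0.01 ± 0.13 (0.22 and 0.96). Unc5b was higher than controls by 0.40 ± 0.12 and 0.52 ± 0.16 there (0.059 and 0.063). Those values missed the threshold, although in each region every mutant was above every control. With renewed quantile normalization Unc5b passed higher in both regions (0.42, 0.035, and 0.55, 0.037), and with probe sets averaged it did in cerebellum (0.50, 0.038).

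Ntn4, a netrin of basement membranes, rose in ret from 11.56, 12.22, 12 and 11.78 to 12.68, 12.68, 12.90 and 12.60 (0.83 ± 0.15, adjusted p = 0.0092). Epha4, a receptor of both ephrin classes, fell in ret from 10.20, 10.18, 10.09 and 9.87 to 9.53, 8.85, 9.09 and 7.99 (-1.22 ± 0.30, 0.03). Neither gene had overlapping groups. In R26P cerebrum and cerebellum Ntn4 was at 0.29 ± 0.11 and 0.21 ± 0.09 (0.093 and 0.17) and Epha4 at -0.12 ± 0.21 and 0.11 ± 0.20 (0.72 and 0.72). The test of a difference between ret and R26P cerebrum passed for neither (Ntn4 0.54, adjusted p = 0.12; Epha4 -1.10, 0.12), so a change particular to ret is not shown for them; with probe sets averaged the Ntn4 difference passed (0.96, 0.042). The Epha4 call was lost without ret control 1, 2 or 3 (0.076, 0.08 and 0.071) or ret mutant 2 or 3 (0.073 and 0.055), and with the mean of the pituitary markers as a covariate (-0.80, 0.37); 4 further Epha4 probe sets were lower by 0.33 to 1.12. With ret mutant 3, the mutant without Gh, as the only mutant, Ntn4 changed by 1.01 and Ntn1 by -1.49. Plxnb1 changed by -2.82 in that run, and Sema4g, below 4 on all arrays of this model, by 0.49. Calls in that run would assume that the lone mutant varies as the controls do, so none are given. The Sema4d change in ret, 0.93 ± 0.26, ended at 0.05 and did not pass; without ret mutant 1 or 4 it passed at 1.08 (0.039) and 0.67 (0.029).

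A direct test of the difference between the ret effect and the R26P effect in cerebrum passed for 6 members, 3 in each direction, or 14.6% of the members against 3.35% of all tested genes (1.67% higher, 1.68% lower). The models also differ in strain and labelled age, and the ret region is not named, so the effect of the genotype and of these cannot be told apart. Unc5b had a difference of -1.28 ± 0.15 (adjusted p = 0.00081), Sema7a of -0.95 ± 0.16 (0.0096) and Sema3e of 2.10 ± 0.38 (0.013). These calls were kept whichever array was left out. Sema3e is above 4 on mutant arrays only, so it entered this test, and the count of 6, through the groups where it was high. Its stability is therefore no separate support. Sema3g differed by -0.90 ± 0.21 (0.034), Sema5a by 1.43 ± 0.36 (0.046) and Plxnb2 by 1.11 ± 0.28 (0.048). The Sema5a call was kept only without ret control 2 or R26P mutant cerebrum 3 (up to 0.092 otherwise) and the Plxnb2 call only without ret mutant 1 or R26P mutant cerebrum 4 (up to 0.097). The Sema3g call was kept without ret control 4, ret mutant 1, R26P control cerebrum 1 or R26P mutant cerebrum 2, 3 or 4, and was otherwise lost (up to 0.064). Sema4c and Ntn1 differed by 0.00 ± 0.17 and -0.01 ± 0.35 between the models.

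**Figure D3:**
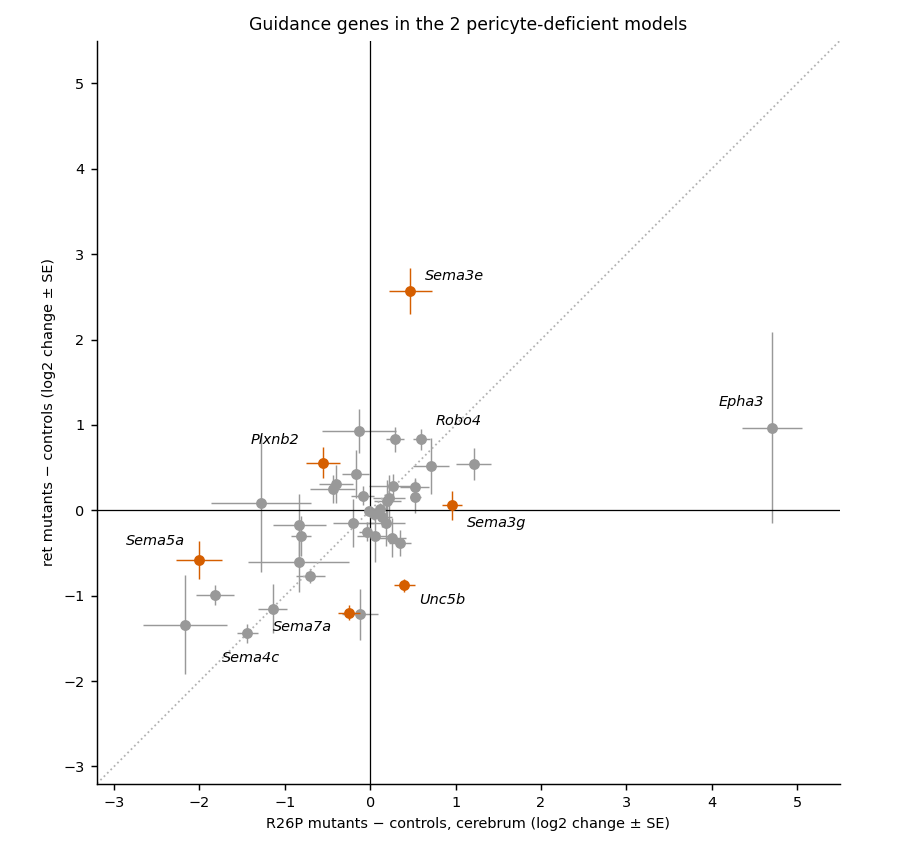
Log2 change of the 41 measured guidance genes in ret mutants (vertical axis) against R26P mutants in cerebrum (horizontal axis), each from 4 controls and 4 mutants, with bars of 1 SE. Orange marks the 6 genes whose changes differed between the models past the threshold, grey the others, and the dotted line marks equal changes. Sema3e lies high at 2.57 on the ret axis, and Unc5b lies at -0.88 in ret and 0.40 in R26P.

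Regions were compared within each genotype only. Between wild-type cerebellum and cerebrum 3 of 41 members passed, all higher in cerebellum, against 2.12% of all tested genes (1.78% higher, 0.338% lower). Sema3b, a secreted semaphorin, was 6.13, 6.31 and 5.20 in cerebrum and 7.92, 8.74 and 8.34 in cerebellum. Slit2 was 7.77, 7.86 and 7.04 in cerebrum and 9.12, 9.43 and 9.26 in cerebellum. Plxnb1 was 8.84, 8.88 and 8.93 in cerebrum and 9.25, 9.32 and 9.33 in cerebellum. All 3 genes were higher in cerebellum without overlap, as 21.7% of all genes were in either direction, by 2.45 ± 0.35 (adjusted p = 0.033), 1.71 ± 0.23 (0.031) and 0.42 ± 0.06 (0.031). With the replicate number as a block none passed, at 0.059 for Sema3b, 0.059 for Slit2 and 0.061 for Plxnb1, and 1.20% of all genes did. Leaving out any of the 6 arrays ended the calls of Sema3b and Plxnb1 (adjusted p up to 0.14 and 0.13), and any but cerebrum 3, the array with Gh, that of Slit2 (up to 0.13). In the same comparison 2 of 3 cerebellar granule neuron markers (median 1.53) and 4 of 9 pericyte markers (0.60) were higher in cerebellum. So were 2 of 5 fibroblast markers (1.00) and 1 of 7 astrocyte markers (-0.05), and 1 of 7 microglial markers (-0.63) was lower. Of 3 measured choroid plexus and ependyma markers 0 passed (limma), with a median of 1.06 and 2 at an unadjusted p below 0.05. The part of all these cells in the differences of Sema3b, Slit2 and Plxnb1 was not tested.

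In R26P controls none of the members passed without the block (limma; 9 had an unadjusted p below 0.05), against 1.17% of all genes. With the block 3 passed, against 4.22%: Sema3b (2.47 ± 0.37, adjusted p = 0.034), Sema6d (0.51 ± 0.08, 0.036) and the ephrin Efna1 (-0.49 ± 0.08, 0.037). Sema3b was 5.03, 6.38, 4.94 and 5.67 in control cerebrum and 8.92, 8.64, 6.59 and 7.73 in control cerebellum. The cerebellum was higher in each numbered pair and the groups did not overlap (8.12% of all genes in controls, 2.77% in mutants), as in the mutants, where Sema3b was 3.88, 3.88, 5.91 and 3.23 in cerebrum and 7.48, 7.73, 7.22 and 6.14 in cerebellum. Slit2 was 5.53, 8.13, 7.14 and 7.12 in control cerebrum and 9.12, 9.11, 8.30 and 8.60 in control cerebellum, a difference of 1.80 ± 0.50 that did not pass (0.17, and 0.1 with the block). The choroid plexus and ependyma markers had a median difference of 1.38 in these controls, with 0 of 3 passing. Among them Folr1 was 10.08, 11.25, 10.29 and 11.02 in control cerebrum and 12.79, 12.66, 10.95 and 11.77 in control cerebellum. The part of this tissue in the Sema3b and Slit2 differences was not tested. In R26P mutants no member passed (limma; 5 had an unadjusted p below 0.05, and 0% of all genes passed), with or without the block. The Sema3b difference of 2.92 there (0.45, and 0.28 with the block) passed without R26P mutant cerebrum 3 (3.48, 0.032). Without R26P control cerebellum 3 the Sema3b difference of the controls passed as well (2.92, 0.028). The region labels of mutant pair 3 were not settled by the cerebellar gene Gabra6, which read 2.39 in cerebrum and 2.21 in cerebellum. The other granule neuron markers of this pair were higher in the array labelled cerebellum. Neurod1 read 2.72 in cerebrum and 3.38 in cerebellum, both below 4, and Zic1 read 9.67 and 9.89.

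**Figure D4:**
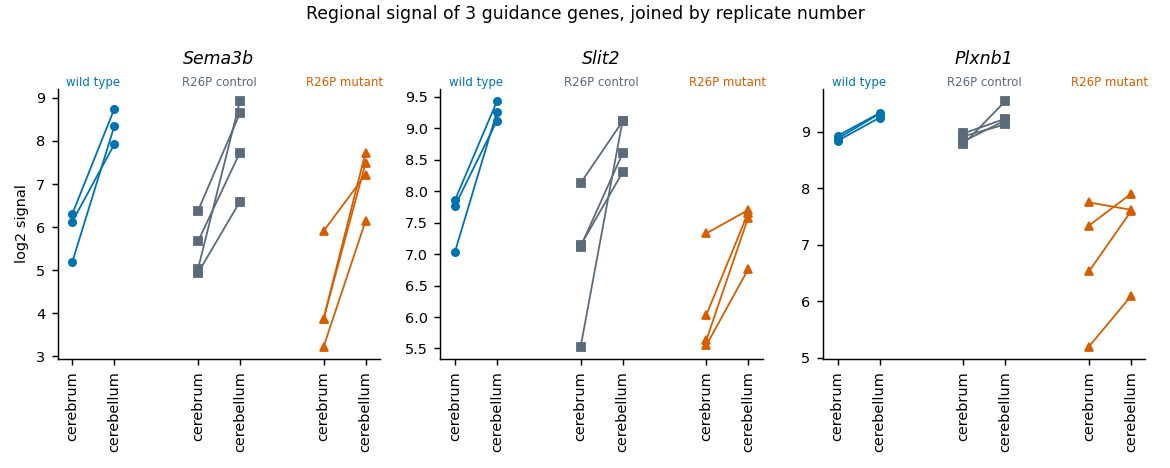
Log2 signal (vertical axis, a scale of its own in each panel) of Sema3b, Slit2 and Plxnb1 in cerebrum and cerebellum of wild type (3 pairs), R26P controls (4 pairs) and R26P mutants (4 pairs), lines joining arrays of one replicate number. Sema3b and Slit2 are higher in cerebellum in each pair.

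Of 17 other receptors, ligands and co-receptors of these pathways 8 were measured; in ret 0 rose and 3 fell, in R26P cerebrum 1 and 3, and for the cerebellum 0 and 1 (37.5%, 50.0% and 12.5% of the 8, against 16.6%, 18.7% and 15.6% of all tested genes). L1cam, an adhesion molecule and semaphorin co-receptor, fell in all 3 (-1.25 ± 0.09, -1.47 ± 0.36 and -1.59 ± 0.38; adjusted p = 0.00034, 0.028 and 0.028). Neo1, a netrin receptor, fell in ret (-0.81 ± 0.19, 0.025), and Flrt2, an Unc5 ligand, rose in R26P cerebrum (0.54 ± 0.16, 0.049). Of 45 intracellular effectors 37 were measured, with 1 higher and 7 lower in ret, 1 and 6 for R26P cerebrum and 1 and 3 for its cerebellum; these are 21.6%, 18.9% and 10.8% of the 37, near or below the shares of all tested genes (16.6%, 18.7% and 15.6%). Farp1, a guanine nucleotide exchange factor linked to class A plexins, fell in all 3 (-1.17 ± 0.27, -1.21 ± 0.15 and -1.19 ± 0.22; 0.026, 0.0017 and 0.01). Rnd1, a GTPase that binds plexins, rose in ret and R26P cerebrum (1.50 ± 0.37 and 1.78 ± 0.41; 0.031 and 0.022). Arhgef15, the exchange factor ephexin-5 of endothelium, fell in ret (-1.04 ± 0.13, 0.0021) and was at -0.27 ± 0.14 in R26P cerebrum (0.21). Pdzrn3, a ubiquitin ligase, fell in both R26P regions (-2.33 ± 0.32 and -1.67 ± 0.39; 0.0025 and 0.028).

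Where a called gene had another probe set with a group mean above 4, it moved in the same direction in 19 of 19 cases. These cases are not independent, since some genes gave several probe sets and some probe sets count in more than 1 comparison. The share over all called genes was not counted. The cases include Nrp2, for which 2 other probe sets were higher by 1.56 to 1.83 between group means in the R26P regions. They also include Sema5a, for which another was lower by 2.41 and 2.10. Sema3f, a secreted ligand of neuropilin-2, was not called, and, as seen after the values were known, its probe sets disagreed. The probe set used here changed by 0.06 ± 0.22 in R26P cerebrum (adjusted p = 0.86) and 0.35 ± 0.23 in cerebellum (0.34), while another went from 5.45 to 7.10 and from 5.40 to 7.11 between group means. With the probe sets averaged Sema3f passed higher in both regions (0.65, 0.0033, and 0.85, 0.00073). Plxna4, a plexin, was not called either, at 0.52 in ret, 0.71 in R26P cerebrum and 1.05 in cerebellum (limma, adjusted p = 0.31, 0.052 and 0.091). With the probe sets averaged it passed higher in ret (1.24, 0.021). In R26P cerebrum it passed with renewed quantile normalization (0.85, 0.027), and in cerebellum without R26P control cerebellum 3 (1.33, 0.035). The pericyte marker mean lay at 7.16 to 8.30 in ret mutants against 11.29 to 11.76 in their controls. In R26P cerebrum it was 7.52 to 9.28 against 12.11 to 12.36, and in cerebellum 8.68 to 10.34 against 12.89 to 13.02. The astrocyte marker mean was 8.90 to 9.28 against 9.79 to 10.42 in ret and 8.01 to 8.49 against 10.14 to 10.47 in R26P cerebrum. Whether the loss of these cells' own transcripts accounts for any fall of a guidance gene was not tested.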

How the data were processed

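RNA of brain microvascular fragments from 30 samples had been hybridised to Affymetrix mouse arrays. The deposited values are log2 signals that the authors made with GCRMA 2.6.0 in R 2.4.1, per the submitters' processing notes; the genome build is not given in the sources used here. The 24 arrays of both models share a lowest value of 2.16 and the 6 wild-type arrays 2.17. Wild type therefore appears to have been normalized apart and was compared only between its own regions. Of 45101 probe sets, 34958 pair with 1 gene, 932 with several and 9211 with none. A gene was tested if its brightest probe set was above 4 in at least 3 arrays (11243 genes), with limma 3.58.1 in R 4.3.3 (lmFit, eBayes, two-sided) on the compared groups alone and Benjamini-Hochberg adjustment over all genes tested. The procedure was tested on simulated data.

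Replicate numbers paired the regions (same-number correlations of 0.344 to 0.483 in wild type, 0.479 to 0.65 in R26P controls and 0.546 to 0.84 in R26P mutants), and blocked values are given there where they change a call; they did not pair controls with mutants. The p-values set each difference between groups against the spread of the arrays within them. Without the block, that spread in the region comparisons includes the differences between the numbered pairs. Members and lists were chosen with earlier results of these data known. Values are given for changed members, the brightest ones, a set of vascular genes and up to 4 changed genes of each pathway list; exceptions that passed only under an alternative were chosen after their values were seen. Alternatives were the filter, averaging each gene's probe sets, renewed quantile normalization, the block, a pituitary covariate and leaving out arrays.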

Additional observations from a re-analysis of the deposited data

Results flagged for a closer look

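Of 86 groups of 4 that were checked, 6 held an array far from the other 3; chance gives about 5% of groups. In R26P mutant cerebellum, replicate 4 read 3.97 for Sema5a, against 4.83 to 4.91 on the others, and 6.76 for Slit2, against 7.58 to 7.70. Robo4 was at 11.48 on R26P control cerebrum 2, against 11.15 to 11.20, and Ntn1 at 8.95 on R26P control cerebrum 4, against 9.28 to 9.31. Plxnb2 was at 11.52 on R26P control cerebellum 1, against 11.08 to 11.15. Sema3g was at 11.13 on ret mutant 3, against 11.43 to 11.48. Robo4 and Ntn1 stayed apart between controls and mutants with these arrays included.

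The difference between mutants and controls was unequal in ret and R26P cerebrum for 6 genes by a test of that inequality itself; the models also differ in strain and labelled age, and the ret region is not named. The differences, ret minus R26P on the log2 scale, were 2.10 for Sema3e, -0.90 for Sema3g, 1.43 for Sema5a, -0.95 for Sema7a, 1.11 for Plxnb2 and -1.28 for Unc5b.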

How the results depend on the processing

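In all, 45 calls of members were made over the 8 comparisons. None reversed its direction under any alternative run. Of these calls 33 were kept whichever array was left out, and 23 under every alternative in which the gene was tested. Members with a mean of 6 or less, among them Sema3e, Epha2, Epha3 and Sema5a, were not in the run with the stricter filter (mean above 6). The counts of called members moved by over 1.5 times in the following cases. Apart from the block between regions, the shares of all tested genes in the alternative runs are not given here. The counts are therefore no result about the members alone. In R26P cerebrum the count was 3 in place of 12 without the arrays with Gh above 8, an alternative chosen after seeing the data that leaves 2 arrays a group. Between wild-type regions it was 1 without a filter on expression, 1 with each gene's probe sets averaged and 0 with the replicate block, in place of 3. Between the regions of R26P controls it was 3 with the replicate block, in place of 0. For the difference between the models it was 3 without a filter and 3 with the replicate block, in place of 6. Leaving out 1 array at a time gave 8 to 12 in ret, 10 to 13 in R26P cerebrum, 12 to 16 in R26P cerebellum, 0 to 2 between wild-type regions, 0 to 1 in R26P controls, 0 to 1 in R26P mutants, 0 for the regional difference of the R26P effect and 3 to 7 for the difference between models. Without a filter the calls of Epha4 and Ntn1 in ret, Plxnb1 and Epha2 in R26P cerebrum, Sema4c and Plxna1 in R26P cerebellum, Sema3b and Slit2 between wild-type regions, and Sema3g, Sema5a and Plxnb2 between models were lost, at adjusted p of 0.066 to 0.14; more genes enter the adjustment there. Controls and mutants share only a number. Under the replicate block the calls of Ntn1 in ret (adjusted p = 0.074), of Sema4c (0.07), Plxna1 (0.1) and Plxnb2 (0.061) in R26P cerebellum, and of Sema3g (0.068), Sema5a (0.063) and Plxnb2 (0.052) between models were not made, and it changed no other count by over 1.5 times. Genes below 4 have no order that these arrays can show.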
